A study of Brassica rapa subsp. chinensis with 6 samples.

Results

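Auxin and gibberellin are the growth hormones that set cell expansion and organ shape in shoots, and this account describes the genes named for them that differed between a chlorotic pakchoi mutant and its wild type. The members are the rows of the authors' table of called genes whose sequence match names auxin, indole-3-acetic acid, an IAA or SAUR gene, gibberellin, a gibberellin oxidase or GASA. The rule found 29 of the 2958 genes in the table, 23 named for auxin and 6 for gibberellin. Every gene in the table had already passed the authors' limits for this same difference, so each fold below is a description. Hormone genes that did not pass are not analysed here.

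Plants of pakchoi, a leafy cabbage (Brassica rapa subsp. chinensis), were sampled above ground when trifoliate. There were 3 libraries of strain 564, labelled wild type, and 3 of strain 564Y, labelled mutant. The labels give neither the mutated gene nor how the mutant arose, and no treatment or plant age beyond the stage. They describe the replicates as biological and independent, yet nothing says that they came from separate plants, and the protocol also mentions several time points. The table holds group means; whole reads per library could be worked out for 25 of the 29 members in both strains. These libraries are called A, B and C within each strain and carry no replicate number.

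Auxin enters cells through carriers such as AUX1 and LAX3 and is sensed by F-box receptors, which mark Aux/IAA repressors for destruction and so free the auxin response factors that switch on target genes. GH3 enzymes that act on auxin link it to amino acids and so lower the free pool. SAUR genes are among the quickest targets of the hormone. Gibberellin 20-oxidases carry out late steps of gibberellin synthesis, gibberellin 2-oxidases inactivate the hormone, and DELLA proteins hold growth back until gibberellin has them degraded. These roles are known mainly from Arabidopsis.

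In the mutant, 22 of the 29 members were higher and the other 7 lower, or 75.9% higher, where 59.7% of all rows of the table were higher. Auxin members were higher in 17 of 23 cases and gibberellin members in 5 of 6. Lower genes made up 40.3% of the table. Of the 32491 genes the authors tested, a number worked out from their p-values, 9.10% were called, 5.44% as higher and 3.67% as lower. The members' share of all reads in the table was 0.537% in the wild type libraries and 0.991% in the mutant ones. Among genes with reads in both strains, the median absolute log2 ratio was 1.82 for higher members and 1.70 for all higher genes of the authors' deposited table. For lower members it was 1.30, against 1.54 for all lower genes of the authors' deposited table.

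All values below are normalised reads, that is reads divided by a size factor per library, unless another scale is named. In all 25 members with library values the 3 mutant libraries lay entirely above or entirely below the 3 wild type libraries. The same held for 100% of the 2512 genes of the table with library values, so this says nothing particular about these genes. In bulk tissue, fewer cells of a type and less RNA per cell cannot be told apart.

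**Figure D1:**
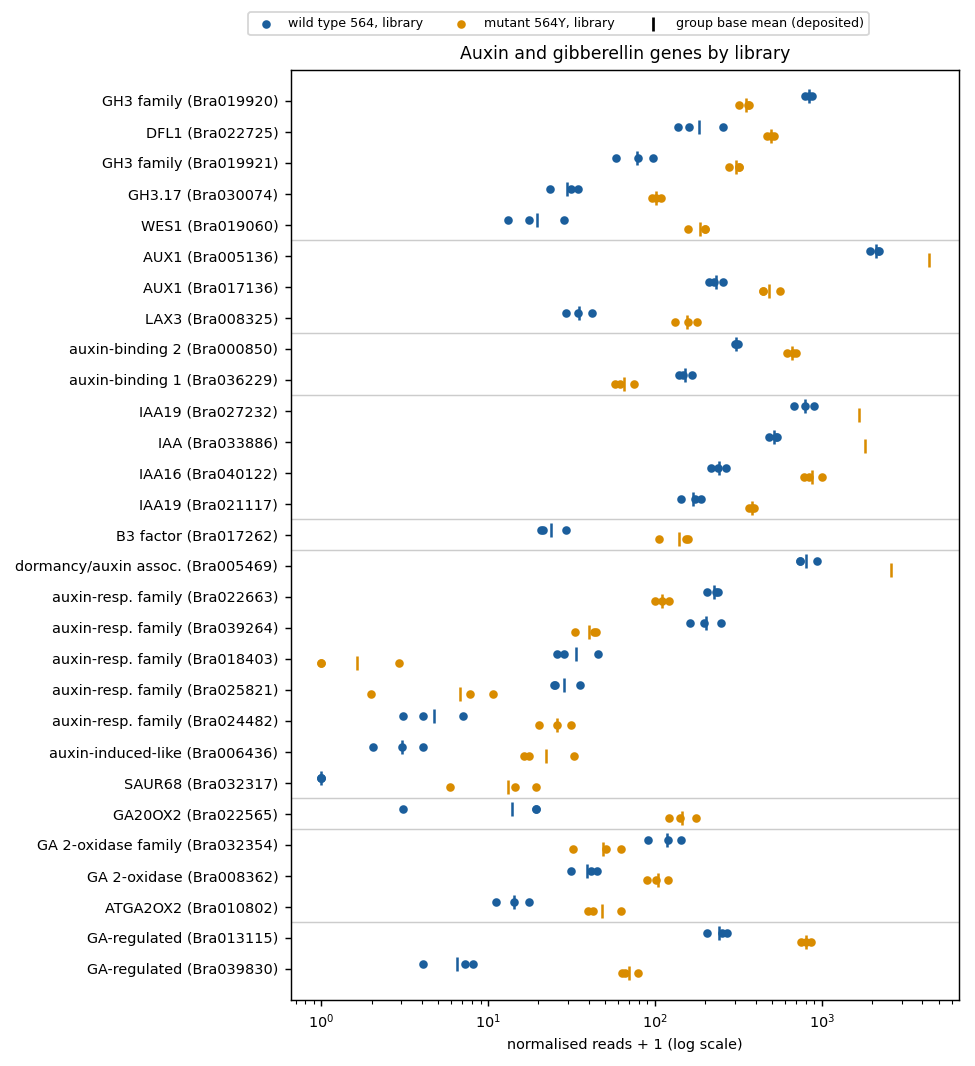
Normalised reads plus 1 on a log axis for the 29 members, grouped by role; dots are recovered libraries of the wild type (blue) and the mutant (orange), and upright bars are the authors' group base means. Of the members, 22 lie to the right in the mutant and 7 to the left, and 4 abundant members have no mutant dots because their library values could not be worked out.

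Genes for the Aux/IAA repressors were all higher in the mutant, 4 of 4. IAA16 (Bra040122) had 235.8, 266.5 and 215.4 normalised reads in wild type libraries A, B and C and 999.0, 832.2 and 781.5 in the mutant libraries. The lowest mutant library was 2.93 times the highest wild type library, and the group means differed 3.64-fold. The log2 difference fitted by edgeR's quasi-likelihood test was 1.86 (SE 0.12, Benjamini-Hochberg adjusted p = 2.33e-11), although all 2512 genes fitted passed 0.05 in this test because they had been selected for the difference.

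A repressor gene matched to a B. rapa protein named only IAA (Bra033886) had 482.8, 533.1 and 526.5 in the wild type libraries and an authors' mean of 1817 in the mutant, a 3.53-fold difference. Its p-value in the authors' deposited table was the smallest of all members. The other 2 repressor genes both match Arabidopsis IAA19, a repressor known from bending and elongating shoots. The IAA19 gene Bra021117 had 188.2, 171.9 and 142.6 in the wild type, against 388.1, 364.6 and 381.0 in the mutant, and the difference was 2.26-fold. With TMM factors, edgeR's trimmed-mean scaling, here computed from called genes alone, its log2 difference was 0.78, below the authors' limit of 1. The more abundant copy, Bra027232, had 896.7, 788.4 and 681.5 in the wild type and an authors' mean of 1662 in the mutant, 2.11-fold higher. Both copies therefore moved by nearly the same factor, and Bra027232 held 82.5% of the pair's reads in the wild type libraries and 81.5% in the mutant ones. Summed over the 4 genes, the base means were 1709.8 and 4728, a 2.77-fold difference.

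Genes for auxin influx carriers were also all higher, 3 of 3. LAX3 (Bra008325), which in Arabidopsis imports auxin into cells that are about to separate, had 28.3, 40.7 and 33.3 in the wild type, against 177.7, 129.9 and 156.3 in the mutant. The groups were far apart and the means differed 4.53-fold (edgeR log2 difference 2.18, SE 0.21, Benjamini-Hochberg adjusted p = 6.87e-09). Both genes matched to the B. rapa AUX1 protein, the main influx carrier, were close to the authors' limit of a log2 ratio of 1. Bra017136 had 225.7, 255.3 and 208.1 in the wild type libraries and 440.9, 439.7 and 559.7 in the mutant ones, a 2.09-fold difference. Mutant library C was the highest there, and without it the edgeR log2 difference was 0.94, below that limit. It was also just below the limit without wild type library C, and 0.67 with TMM factors. The abundant copy Bra005136 had 1930.0, 2197 and 2172 in the wild type and an authors' mean of 4381 in the mutant, 2.09-fold higher. It held 90.1% of the pair's reads in each strain. No gene named for an auxin efflux carrier was among the members.

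GH3 genes changed in both directions, 4 higher and 1 lower. WES1, GH3.17 and DFL1 are described as indole-3-acetic acid amido synthetases, which conjugate auxin, and all of these were higher. WES1 (Bra019060) rose most, from 27.3, 12.2 and 16.6 in the wild type libraries to 156.6, 198.2 and 197.3 in the mutant, 9.83-fold (95% interval 7.44 to 13.2, exact binomial, counting error only). GH3.17 (Bra030074) had 33.4, 22.4 and 30.2 in the wild type, against 95.1, 107.8 and 99.6 in the mutant, a difference of 3.52-fold (interval 2.76 to 4.53). Relative to the mean, the mutant libraries were tighter in both genes. Coefficients of variation were 12.9% against 41.5% for WES1 and 6.36% against 19.8% for GH3.17. The standard deviations were larger in the mutant, 23.8 against 7.77 for WES1 and 6.41 against 5.66 for GH3.17. Low counts widen the relative spread in general, and their part in the wild type values here was not tested. DFL1 (Bra022725), whose overexpression gives dwarf shoots in Arabidopsis, had 253.0, 136.3 and 159.2 in the wild type libraries and 467.8, 515.7 and 495.3 in the mutant ones. Wild type library A stood highest, and the means differed 2.70-fold.

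The other 2 GH3 genes carry consecutive identifiers and went opposite ways. They are described only as auxin-responsive GH3 family proteins, so that they conjugate auxin is not given. Bra019920 fell from 787.4, 868.8 and 835.5 in the wild type to 363.1, 360.8 and 319.4 in the mutant, 2.39-fold. Bra019921 rose from 96.1, 57.0 and 78.0 to 317.9, 277.1 and 317.5, which is 3.95-fold. The edgeR log2 differences were -1.26 (SE 0.10, Benjamini-Hochberg adjusted p = 7.78e-10) and 1.98 (SE 0.18, adjusted p = 2.36e-09). With column sums of the recovered counts that of Bra019920 was -0.98, just inside the authors' limit and so not called. Within this pair Bra019921 held 10.9%, 6.15% and 8.54% of the reads in the wild type libraries and 46.7%, 43.4% and 49.9% in the mutant libraries. The sources used here do not say how reads shared by similar copies were assigned, and the part of that step in this opposite movement was not tested.

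The makeup of the sum over the 5 GH3 members differed between the strains, while the direction of this sum depended on the scaling. Summed over the 5 genes, the wild type libraries held 1197, 1097 and 1119.6 normalised reads and the mutant libraries 1400.5, 1459.5 and 1429, a 1.26-fold difference with no overlap. With TMM factors the mutant sum was 0.954 times the wild type sum and the groups overlapped. With column sums of the recovered counts it was 1.52 times. Both scalings were computed from called genes alone, so they cannot settle the direction of the sum. Bra019920 supplied 73.0% of the wild type sum and 24.3% of the mutant sum. DFL1 took the largest share in the mutant, 34.5%, up from 16.1%, and WES1 went from 1.65% to 12.9%. A further gene, described as putative GH3-like (Bra018750), lies outside the rule because its text does not mention auxin. It was higher as well, with authors' means of 665.2 and 1629. Its mutant mean exceeded the mutant sum of the 5 members, 1429.7 in base means. The sum, its direction and the shares above leave this gene out and hold for the 5 members alone.

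**Figure D2:**
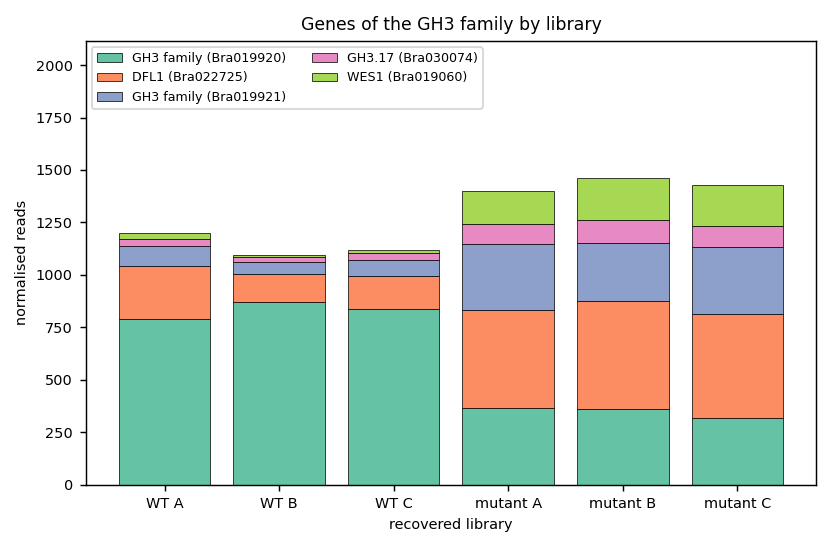
Stacked bars of normalised reads of the 5 GH3 members in each recovered library of the wild type (WT) and the mutant. Bra019920 fills 73.0% of the wild type sum and 24.3% of the mutant sum, while the sum itself is 1.26-fold higher in the mutant with the size factors shown and 0.954 times the wild type with TMM factors.

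The pair of genes matched to auxin-binding proteins of the endoplasmic reticulum, both named from Sinapis arvensis, also went opposite ways. Bra000850 had 305.6, 301.1 and 312.2 in the wild type, against 695.4, 670.6 and 613.5 in the mutant, a 2.15-fold rise. Bra036229 had 138.7, 165.8 and 146.7 in the wild type libraries and 56.7, 60.6 and 74.2 in the mutant ones, a 2.36-fold fall. Bra000850 thus held 67.1% of the pair's reads in the wild type, against 91.2% in the mutant. The sum of both rose from 444.3, 467.0 and 458.9 to 752.1, 731.2 and 687.7. At the authors' limits edgeR lost the call of Bra000850 with TMM factors (log2 difference 0.71) and that of Bra036229 with column sums of the recovered counts (-0.96), with both directions kept. The words susceptible and resistant in their descriptions refer to Sinapis arvensis plants and say nothing of the pakchoi strains.

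Auxin-responsive genes split evenly, 4 higher and 4 lower. All 4 lower ones were among the 5 genes described only as an auxin-responsive family protein, a name given to several short response genes. Bra039264 had 248.0, 194.3 and 160.2 in the wild type libraries and 42.3, 43.3 and 32.2 in the mutant ones, 5.11-fold lower. Bra022663 had 230.8, 203.5 and 237.2 in the wild type, against 120.1, 109.7 and 98.7 in the mutant, 2.04-fold lower. This last gene lies near the authors' limit, and the edgeR log2 difference shrank to -0.96 without mutant library C to -0.99 without wild type library C, and to -0.76 with column sums of the recovered counts.

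A further pair of lower genes, Bra018403 and Bra025821, matches the same Arabidopsis protein. Bra018403 had 27.3, 44.8 and 25.0 in the wild type, while in the mutant libraries A and C had 0 reads and library B had 2 reads. That is a 50.4-fold fall (interval 13.6 to 422.5), and without mutant library B the gene has 0 reads in the mutant. Bra025821 had 24.3, 34.6 and 23.9 in the wild type libraries and 9.61, 6.73 and 0.977 in the mutant ones, 4.78-fold lower (interval 2.84 to 8.47). Leaving out any 1 of 4 libraries, namely A or B of the wild type or B or C of the mutant, ended the call of this gene in edgeR at the authors' limit of 0.001, with a largest Benjamini-Hochberg adjusted p of 0.00164. Bra024482, the only higher gene of this description, had 6.07, 3.05 and 2.08 in the wild type, against 25.0, 19.2 and 30.3 in the mutant. The 5 genes together held 536.4, 480.2 and 448.5 in the wild type libraries and 196.9, 180.9 and 162.2 in the mutant libraries.

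SAUR68 (Bra032317) is the only member with the SAUR name. It had 0 reads in each wild type library and 18.3, 13.5 and 4.88 normalised reads in the mutant libraries, so it was at least 11.9-fold higher when 3 reads over the wild type group are taken as the floor. The level was low and mutant library C stood lowest. An auxin-induced protein-like gene (Bra006436), with the shortest coding length of the members at 279 bases, had 2.02, 3.05 and 1.04 in the wild type libraries and 31.7, 15.4 and 16.6 in the mutant ones. The difference was 10.4-fold (interval 4.54 to 29.4).

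The fourth higher gene of this group was named dormancy/auxin associated (Bra005469), a family known for high levels in resting buds. It was the most abundant member per coding length, at 2467 normalised reads per 1000 coding bases in the wild type, against 8024 in the mutant. Its wild type libraries held 929.1, 734.5 and 734.6 normalised reads, and the authors' mean in the mutant was 2599.9, 3.25-fold higher. The factor gene Bra017262, listed as a B3 domain protein with auxin responsive factor as an alternative name, had 28.3, 20.3 and 19.8 in the wild type libraries and 104.7, 152.0 and 157.3 in the mutant ones. It was 6.05-fold higher (interval 4.67 to 7.95). These 2 members carry the word auxin in their names although neither is placed in the core pathway by its description.

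The single gibberellin synthesis gene among the members was higher in the mutant. GA20OX2 (Bra022565), a gibberellin 20-oxidase that in Arabidopsis promotes stem elongation and flowering, had 18.2, 18.3 and 2.08 in the wild type, against 173.9, 139.5 and 120.2 in the mutant. Wild type library C, with 2 reads, was well below the other two, and the means differed 11.2-fold (interval 8.05 to 16.1). The edgeR log2 difference was 3.47 (SE 0.33, Benjamini-Hochberg adjusted p = 6.26e-09) and 2.98 without that library. No other synthesis enzyme was among the members.

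Gibberellin 2-oxidase genes, which inactivate the hormone, changed in both directions, 2 higher and 1 lower. ATGA2OX2 (Bra010802) had 10.1, 13.2 and 16.6 in the wild type libraries and 38.4, 41.4 and 61.5 in the mutant ones, a 3.53-fold rise (interval 2.47 to 5.17). The gene described as gibberellin 2-oxidase (Bra008362) had 40.5, 43.7 and 30.2 in the wild type, against 100.9, 119.3 and 87.9 in the mutant, 2.69-fold higher. The gibberellin 2-oxidase family gene Bra032354, the most abundant of the 3 in the wild type, had 90.1, 118.0 and 142.6 there and 61.5, 50.03 and 31.3 in the mutant, 2.46-fold lower. It was the member with the narrowest gap, its lowest wild type library being 1.47 times its highest mutant library.

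Summed over the 3 genes, the wild type libraries held 140.7, 175.0 and 189.4 and the mutant libraries 200.8, 210.7 and 180.7, so the groups overlapped. The mutant sum was 1.17 times that of the wild type, but 0.888 times with TMM factors. With column sums of the recovered counts it was 1.42 times and the groups did not overlap. Both scalings rest on called genes alone and cannot settle the direction. Against Bra010802 alone, Bra032354 held 89.8% of the reads in the wild type libraries and 50.3% in the mutant ones.

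The 2 gibberellin-regulated family genes, small secreted proteins known as the GASA family, match the same Arabidopsis protein and both rose. Bra013115 had 202.4, 252.3 and 267.4 in the wild type, against 799.2, 743.7 and 861.6 in the mutant, a 3.33-fold difference (edgeR log2 difference 1.74, SE 0.12, Benjamini-Hochberg adjusted p = 5.77e-11). Bra039830 had 7.08, 3.05 and 6.24 in the wild type libraries and 62.4, 65.4 and 78.1 in the mutant ones, 12.6-fold higher (interval 7.57 to 22.4). The rarer copy therefore rose by the larger factor, and Bra013115 went from 97.8% to 92.1% of the pair's reads.

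**Figure D3:**
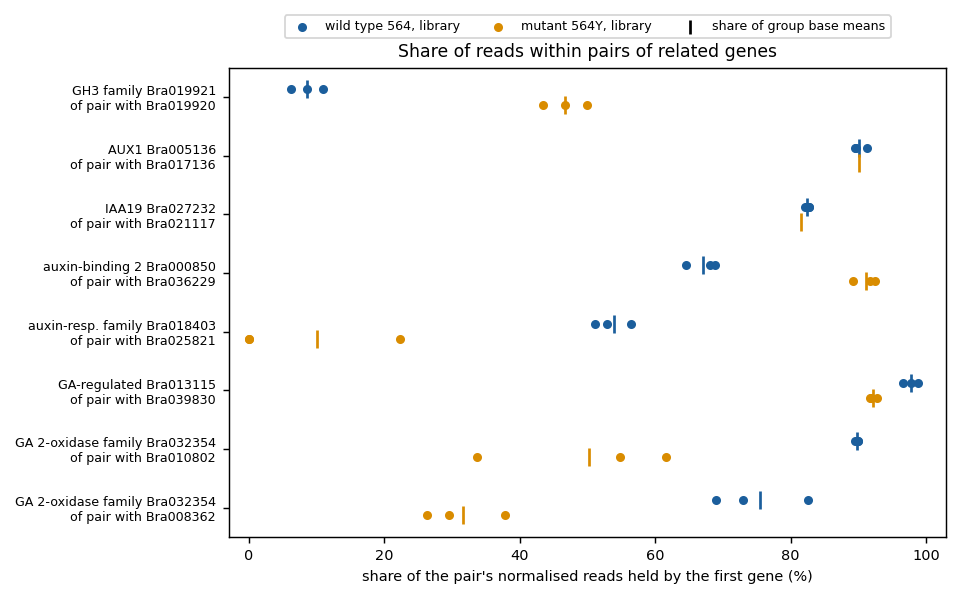
Share of a pair's normalised reads held by the first gene named on each line, in percent, in recovered libraries (dots) and from the authors' group base means (upright bars). The AUX1 and IAA19 pairs keep their shares between strains, while the GH3 pair goes from 8.49% to 46.7% and the auxin-binding pair from 67.1% to 91.2%.

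Pairs of related genes differed in how evenly they moved. In the authors' deposited table the log2 ratios were 1.06 for both AUX1 genes (Bra005136 and Bra017136), and 1.08 and 1.17 for the IAA19 genes (Bra027232 and Bra021117). In the GH3 pair the log2 ratios in the authors' deposited table differed by 3.24 and in the auxin-binding pair by 2.34, with opposite signs. These pairs were singled out after their values were seen. The authors' limit of an absolute log2 ratio of 1 also shapes this contrast. Genes of opposite sign that passed it had to differ widely, and the AUX1 and IAA19 ratios lie near it.

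**Figure D4:**
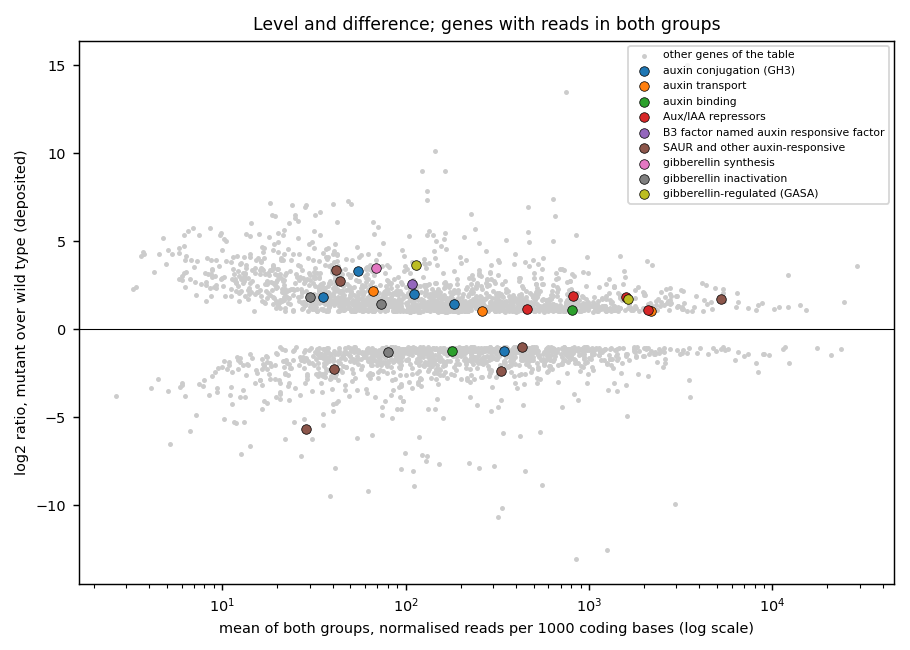
Level on the x axis (mean of both strains, normalised reads per 1000 coding bases, log scale) against the authors' log2 ratio of mutant over wild type, for the 28 members with reads in both strains (coloured by role) and the other genes of the table (grey). The empty band around 0 is the authors' limit of a log2 ratio of 1, and members lie within the grey cloud at low and high levels.

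Per coding length, the members ranked from 0 (SAUR68) and 7.31 (Bra006436) to 2467 (Bra005469) in the wild type, with a median of 99.4 normalised reads per 1000 coding bases. The median over the whole table was 96.5. In the mutant the members' median was 176.6 and the median of all genes in it 118.1. The AUX1 gene Bra005136 and the IAA19 gene Bra027232 were the next most abundant members in both strains, at 1417 and 1349 per 1000 coding bases in the wild type, against 2956 and 2841 in the mutant. Among the 16 members with library values and a base mean of at least 20 in both strains, libraries varied by a median of 16.2% (coefficient of variation) within the wild type group, a median of 11.4% within the mutant group, and by 11.9% and 11.1% over 1658 such genes of the table.

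Other genes of the same pathways were looked up by symbol or product word. Of 4 further auxin genes, 2 were higher and 2 were lower. WAG2 (Bra027344), a kinase that steers auxin efflux carriers in Arabidopsis, had authors' means of 31.3 and 119.5 and was higher, as was the GH3-like gene above. The lower ones were SUR1 (Bra036490), from 3981 to 1378, and CYP83B1 (Bra034941), from 9732 to 3681, both of them enzymes of glucosinolate synthesis whose loss in Arabidopsis raises auxin. Both further gibberellin genes were higher, the DELLA gene RGA2 (Bra017443), from 2057 to 4143, and the GATA factor gene CGA1 (Bra026461), from 580.2 to 1263. CGA1 is described as a cytokinin-responsive factor and is counted again among the cytokinin genes below.

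Genes of neighbouring hormones were counted in the same way, against 59.7% of higher genes in the table. Cytokinin words matched 12 genes, 11 higher and 1 lower. Of these, 4 are named pseudo-response regulators, a name shared with clock genes, and 1 is an isoprenoid enzyme. The higher ones included an isopentenyltransferase (Bra007728), which makes cytokinin, 15.5-fold higher (interval 8.48 to 31.7), and the lower one was the phosphotransmitter AHP4 (Bra027169), 14.5-fold lower (interval 8.46 to 27.1). The response factor gene CRF3 (Bra022643) was higher, from 3.42 to 21.9, as was a pseudo-response regulator 2 gene (Bra013278), from 4.11 to 23.8. All 3 brassinosteroid genes were higher, a signalling regulator gene (Bra035060) from 45.0 to 128.9, the synthesis gene BR6OX1 (Bra025427) from 32.0 to 81.8 and a receptor-like gene (Bra024840) from 61.0 to 146.0. Of 4 abscisic acid genes 2 were higher, both CYP707A genes for breakdown of the hormone (Bra040762 from 1146 to 2815 and Bra012551 from 40.6 to 90.2), and 2 were lower. The lower ones were the receptor gene PYL10 (Bra026299), from 20.8 to 3.54, and the glucosyltransferase gene UGT75B1 (Bra015435), from 1814 to 545.3.

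Cell expansion genes, expansins and xyloglucan endotransglucosylases, numbered 19, of which 14 were higher and 5 lower. The 4 largest ratios were all rises, in an XTH17 gene (Bra010291, 40.2-fold), XTR7 (Bra038442, 14.5-fold), an EXPA9 gene (Bra005713, 13.5-fold, interval 10.5 to 17.7) and XTH18 (Bra024088, 12.8-fold). Among the 5 lower genes were expansin 1 (Bra004392), from 1781 to 480.8, expansin B1 (Bra026272), from 536.1 to 160.6, and EXPB2 (Bra004889), from 63.8 to 14.5. The others were XTH29 (Bra013367), from 130.5 to 53.7, and an XTR6 gene (Bra013922), from 58.2 to 8.36. Another XTR6 gene (Bra008806) was higher, from 10.2 to 61.9.

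Markers of other organs and cell types moved as well. Both KNAT6 genes, the matched members of the shoot meristem list, were higher in the mutant, Bra016348 from 68.8, 27.5 and 17.7 to 239.2, 229.0 and 240.3 and Bra024591 from 82.0, 45.8 and 32.3 to 182.5, 167.4 and 148.5. Wild type library A stood highest in both. The flower list matched 4 genes, 3 higher and 1 lower, but only the AGL8 and AGL9 homologs are floral, at 0 and 0.675 in the wild type libraries and 14.2 and 25.7 in the mutant ones. The other 2 match the list by symbol alone, a stress enhanced protein named SEP2 (Bra031223), from 1712 to 803.5, and the phospholipase gene PLC7 (Bra032722), from 45.7 to 221.6. The root list matched 3 genes, 2 higher and 1 lower, from 0.347 to 31.3 for MLP34, from 7.83 to 56.7 for RHD2 and from 23.9 to 0 for PERK13. The leaf list matched 1 gene, a kinase named for RBCS, so the labelled tissue cannot be checked against leaf markers within a table of called genes. The part of these markers in the differences of the hormone genes was not tested.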

How the data were processed

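RNA from above ground was sequenced in 3 wild type and 3 mutant libraries. The submitters' processing notes list TopHat2 2.0.12, Bowtie2 2.2.3 and DESeq 1.10.1 without saying what each did. Build, annotation and read counter: not given in the sources used here. Per the file headers, the authors deposited for each called gene the mean read count per group, a signal, and the base mean per group. The authors also deposited a log2 ratio of mutant over wild type, a p-value and its adjusted value, per the file headers. The headers do not say how these were made. Here the base mean was taken as counts divided by size factors, and the log2 ratio as the authors' ratio of base means. The p-value and its adjusted value were taken as those of the authors' own test of the strains. Every adjusted value in the table was under 0.001 and every absolute log2 ratio at least 1. A base mean of 0.001 stands for 0 reads. The mean read counts of the table sum to 1348884 reads per wild type library and 1677855 per mutant library. Library depths cannot be read from these sums. All 2958 lengths are multiples of 3 and so coding lengths.

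Whole reads per library were recovered where only 1 set of whole counts gave both deposited means of a group, which held for 2901 genes in the wild type, 2528 in the mutant and 2512 (84.9%) in both. The size factors, read from genes with 1 read in a group, for libraries A, B and C were 0.988, 0.983 and 0.961 (wild type) and 1.04, 1.04 and 1.02 (mutant). Of the members, 4 abundant ones were not recovered. A mean read count multiplied by 3 was within 0.0001 of a whole number throughout. The recovery and the edgeR step were tested on simulated data in which most genes were unchanged. All genes of the real table were selected as different, so the simulation does not check the edgeR step in that setting. The number of genes tested was taken from the p-value over its adjusted value, which is a rank over that number.

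Main results are the authors' calls and ratios of base means. As alternatives, edgeR 4.0.16 (quasi-likelihood, R 4.3.3) and DESeq2 1.42.0 were run on the 2512 recovered genes with these size factors. Each SE given is for edgeR and was derived from the log2 difference and its F statistic. Folds carry an exact binomial (Clopper-Pearson) 95% interval where a group had fewer than 100 reads and reads in both groups. Intervals cover counting error only. P-values set the difference between the groups against a modelled spread of these libraries, which are not shown to come from separate plants.

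Every member is named. Of each other list, up to 4 genes are named, those with the largest absolute log2 ratio among genes with reads in both strains. Some more, listed at 0 in a strain, and further cell expansion genes were named after their values were seen. The members and lists were chosen with earlier results of these data known. Product names are those of the sequence matches, and the match text of 1107 genes holds the words hypothetical protein, unknown, predicted protein or unnamed, so members can be missed. Of the identifiers, 0 were found in the reference table, so no coordinates or sequences are given. Near-identical copies are common in this genome, which makes values of single family members uncertain.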

Additional observations from a re-analysis of the deposited data

How the results depend on the processing

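No paired analysis was possible because nothing ties a recovered library to a replicate number of the labels. With a log2 limit of 2, 8 members were higher and 3 lower. At an adjusted p under 0.00001, or with at least 50 reads in the higher group mean, 18 were higher and 5 lower. Shares over all genes of the table were not computed at these limits, so these counts say nothing particular about the members. On the 25 recovered members edgeR and DESeq2 each called 18 higher and 7 lower at the authors' limits. Of all 2512 recovered genes edgeR called 1430 higher and 1079 lower, and DESeq2 1405 and 1074. Nearly every gene was called, so the members' calls say nothing particular about them. TMM factors moved the median log2 difference of all recovered genes from 1.13 to 0.73 and gave 15 and 7 (68.2% higher), where all recovered genes gave 992 higher and 1079 lower (47.9% higher, against 57.0% with the authors' size factors). The calls lost were those of Bra017136, Bra000850 and Bra021117. Column sums of the recovered counts as library sizes moved it up by 0.27 and gave 18 higher and 4 lower (81.8% higher), where all recovered genes gave 1433 and 774 (64.9% higher). The calls lost were those of Bra019920, Bra036229 and Bra022663. Both scalings were computed from genes already called as different, with no unchanged genes to anchor them. Lost calls and changed sums under them cannot tell which scaling is right. Of 5 sums over related members, recomputed with both scalings after seeing the data, 2 changed direction with TMM factors: the mutant over wild type ratio went from 1.26 to 0.954 for GH3 and from 1.17 to 0.888 for the gibberellin 2-oxidases. Leaving out 1 recovered library gave 17 to 18 higher and 5 to 7 lower. Of all recovered genes then called, 56.7% to 57.4% were higher. Of 336 recomputed values of single members under the settings run, 0 changed direction. This was largely fixed in advance. Every member was selected for an absolute log2 ratio of at least 1, and no recovered member had overlapping libraries. Of the other hormone and cell expansion genes, 33 of 43 were higher, where 59.7% of all genes of the table were higher. Cell expansion genes made up 19 of the 43 and 14 of the 33. The 43 also include the pseudo-response regulators and the isoprenoid enzyme matched by cytokinin words, all of them higher. Matched by symbol alone, 21 of 28 were higher. At a log2 ratio of at least 2, where fewer genes are left, 13 of 17 were higher. Both of the 2 mutant reads of Bra018403 lie in library B, so the fitted log2 difference of -8.02 without it depends on the prior count. SAUR68, Bra006436 and Bra024482 rest on the fewest reads of the members, 38, 72 and 88 in all. Genes the authors did not call were not analysed here.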

Other observations

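The deposited p-values carry a rank. In 88 genes with p-values written to enough digits, the p-value over its adjusted value gave ranks nearest to whole numbers, 0.0201 away on average, if 32491 genes had been tested. The next best number more than 5 away, 32507, left 0.0531. On that scale the last gene of the table ranked 6300, so 3342 genes had a p-value as small without being listed, and the table holds 47.0% of the genes down to that rank. Among the members, Bra033886 of the Aux/IAA group ranked 182, the gibberellin-regulated gene Bra013115 384 and WES1 (Bra019060) 481. SAUR68 (Bra032317) ranked 5596, Bra032354 5541 and Bra025821 5455, close to the end.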
